A study of Arabidopsis thaliana with 4 samples.

Results

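The genes described here encode subunits of the 26S proteasome of Arabidopsis thaliana. They were taken by locus code from the deposited table as a list of 40 RPT, RPN, PA and PB genes, out of 33602 identifiers in all. The list holds 14 genes of the base, 11 of the lid, 14 of the core (7 of its α rings and 7 of its β rings) and RPN10, which sits between base and lid. All 40 codes were found in the table and all 40 passed the filter on low values, so no member was left out of any count below. Of the members, 10 have no subunit symbol in the RefSeq annotation and carry here the usual Arabidopsis subunit names: RPT4B, RPT6B, RPN2A, RPN2B, RPN3A, RPN7, RPN8B, RPN9A, RPN9B and RPN11.

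The libraries were made from the terminal 3 mm of roots excised from 5-day-old wild-type seedlings of the Col-0 ecotype. Seedlings had been moved to fresh medium without narciclasine (the controls) or with 0.5 µM narciclasine for 2 or 12 h, so all 4 groups share the genotype, the age and the transfer. Narciclasine is an alkaloid of Amaryllidaceae bulbs that binds the large subunit of eukaryotic ribosomes and blocks peptide bond formation. Each group is 1 library, and the control libraries take their time from their titles. With 1 library per group nothing below has a replicate check, no test between conditions was run and no p-value is given: every statement compares libraries.

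The 26S proteasome degrades proteins that carry ubiquitin chains. Its core is a barrel of stacked α and β rings with the proteolytic sites inside, and a regulatory particle caps the barrel. The base of that particle has a ring of RPT ATPases that unfold the substrate and the large scaffold subunits RPN1 and RPN2. The lid takes the ubiquitin chain off the substrate. In Arabidopsis many subunits are encoded by a pair of paralogous genes, and plants whose proteasome is impaired raise the transcripts of subunit genes through the transcription factors NAC053 and NAC078. These factors bind a promoter element whose core reads TGGGC, and the same letters also occur in the site II motif of many growth-related promoters.

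The upstream regions of 4 members are printed because, among the members farthest from a ratio of 1 at 12 h, these hold the most copies of that core, with ties at 2 copies broken by how far the counting interval of the ratio lay from 1 (RPT1A also holds 2 copies and is not printed). Each is the 250 bases before the annotated gene start in RefSeq TAIR10.1, read 5′ to 3′ on the gene's strand. TGGGC, or its reverse complement GCCCA, is in capitals. The deposited table names no coordinates, so positions are those of TAIR10.1. RPT2A lies at chr4:14312033-14312282, RPT3 at chr5:23568802-23569051, RPN2B at chr1:1349830-1350079 and RPN8B at chr3:3528551-3528800, all on the plus strand.
RPT2A: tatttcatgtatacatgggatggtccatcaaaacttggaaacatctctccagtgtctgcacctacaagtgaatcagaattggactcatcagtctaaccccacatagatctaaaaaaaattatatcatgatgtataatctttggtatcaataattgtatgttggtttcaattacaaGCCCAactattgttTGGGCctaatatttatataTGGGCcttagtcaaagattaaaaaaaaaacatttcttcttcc
RPT3: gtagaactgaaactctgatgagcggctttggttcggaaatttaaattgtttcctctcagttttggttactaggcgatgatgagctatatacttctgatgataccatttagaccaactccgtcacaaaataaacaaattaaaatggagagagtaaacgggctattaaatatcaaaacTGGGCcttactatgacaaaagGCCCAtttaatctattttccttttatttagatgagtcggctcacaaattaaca
RPN2B: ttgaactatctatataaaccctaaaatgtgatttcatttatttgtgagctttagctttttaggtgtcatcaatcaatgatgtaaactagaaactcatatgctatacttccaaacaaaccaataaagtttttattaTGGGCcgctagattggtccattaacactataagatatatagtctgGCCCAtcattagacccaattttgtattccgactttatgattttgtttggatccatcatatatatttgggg
RPN8B: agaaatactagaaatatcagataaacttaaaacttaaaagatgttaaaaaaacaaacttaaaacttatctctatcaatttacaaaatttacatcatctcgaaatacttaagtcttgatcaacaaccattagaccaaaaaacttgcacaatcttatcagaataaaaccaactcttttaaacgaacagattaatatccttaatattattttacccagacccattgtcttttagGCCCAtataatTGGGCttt

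The RPT2A region holds 3 matches, whose first bases lie 75, 61 and 42 bases before the gene start. In RPT3 they lie 74 and 53 bases before it, in RPN2B 115 and 70, and in RPN8B 19 and 8. Over all members, counted on both strands, 20 of 40 (50%) held at least 1 match in this window, against 22.7% of 27443 coding genes and 25.7% of the 18970 coding genes that were compared. At least 2 matches were found in 14 members (35.0%), against 12.6% of coding genes and 15.4% of those compared. Matches occurred in 6 of 14 base genes, 6 of 11 lid genes, 3 of 7 α genes and 5 of 7 β genes, and RPN10 had none. The median narciclasine to control ratio at 12 h was 1.41 for the 20 members with no match, 1.43 for the 6 with 1 match, 1.76 for the 7 with 2 and 1.56 for the 4 with 3. The 3 members with more matches, RPN1A, RPN1B and RPN8A, had 1.46, 1.45 and 1.302. RPT5B, with no match, reached 1.90. The match is a description of letters only. A second motif, AAACCCTA, known as the telo-box, was found in 3 members (7.50%), in 4.49% of coding genes and in 3.56% of those compared.

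Levels are deposited RPKM, reads scaled to gene length and library size, which allow genes to be compared per length. Whole reads per gene could be worked back from these values. The library sizes found were 14541412 for control 2 h, 14244108 for narciclasine 2 h, 11880278 for control 12 h and 14724075 for narciclasine 12 h. Ratios use these reads scaled by TMM (a trimmed mean of log ratios between libraries). In brackets after a ratio stands its 95% interval for the error of counting reads. A gene is called when its ratio is at least 1.5-fold and that interval excludes 1, and 19381 genes with at least 1 CPM (reads scaled to library size) in at least 1 library were compared. All 8 root markers were above 0 in every library, with a summed level of 136.5 RPKM in control 2 h, 156 in narciclasine 2 h, 105.1 in control 12 h and 80.2 in narciclasine 12 h. All 4 shoot markers were also above 0 in every library, with sums of 26.9, 20.2, 70.5 and 20.1 RPKM in the same order.

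The members were abundant transcripts. Their median level was 111 RPKM in control 2 h, 99.5 in narciclasine 2 h, 97.1 in control 12 h and 133 in narciclasine 12 h, where the median of all genes compared lay between 11.3 and 12.4 RPKM. Together the members took 0.635% of the reads on genes in control 2 h, 0.583% in narciclasine 2 h, 0.578% in control 12 h and 0.893% in narciclasine 12 h. RPT1A (AT1G53750), an ATPase of the base, was the highest member in all 4 libraries. The lowest was RPN8B at 2 h, with 21.4 RPKM in the control and 23.5 with narciclasine, and RPN5B at 12 h, with 20.8 and 37.9 RPKM. The level of the highest member was 8.60 to 10.2 times that of the lowest. The core members spanned less, from 2.83 to 3.19 times, than the base members (6.19 to 7.91 times) and the lid members (7.25 to 8.50 times). The list omits the paralogs of the core subunits but holds both paralogs of many base and lid subunits. Core paralogs outside it reached lower, such as AT4G15165 at 2.95 RPKM and AT3G26340 at 31.7 RPKM in control 2 h. The highest level of 36 of the 40 members was in narciclasine 12 h, and of the other 4 in control 2 h.

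**Figure D1:**
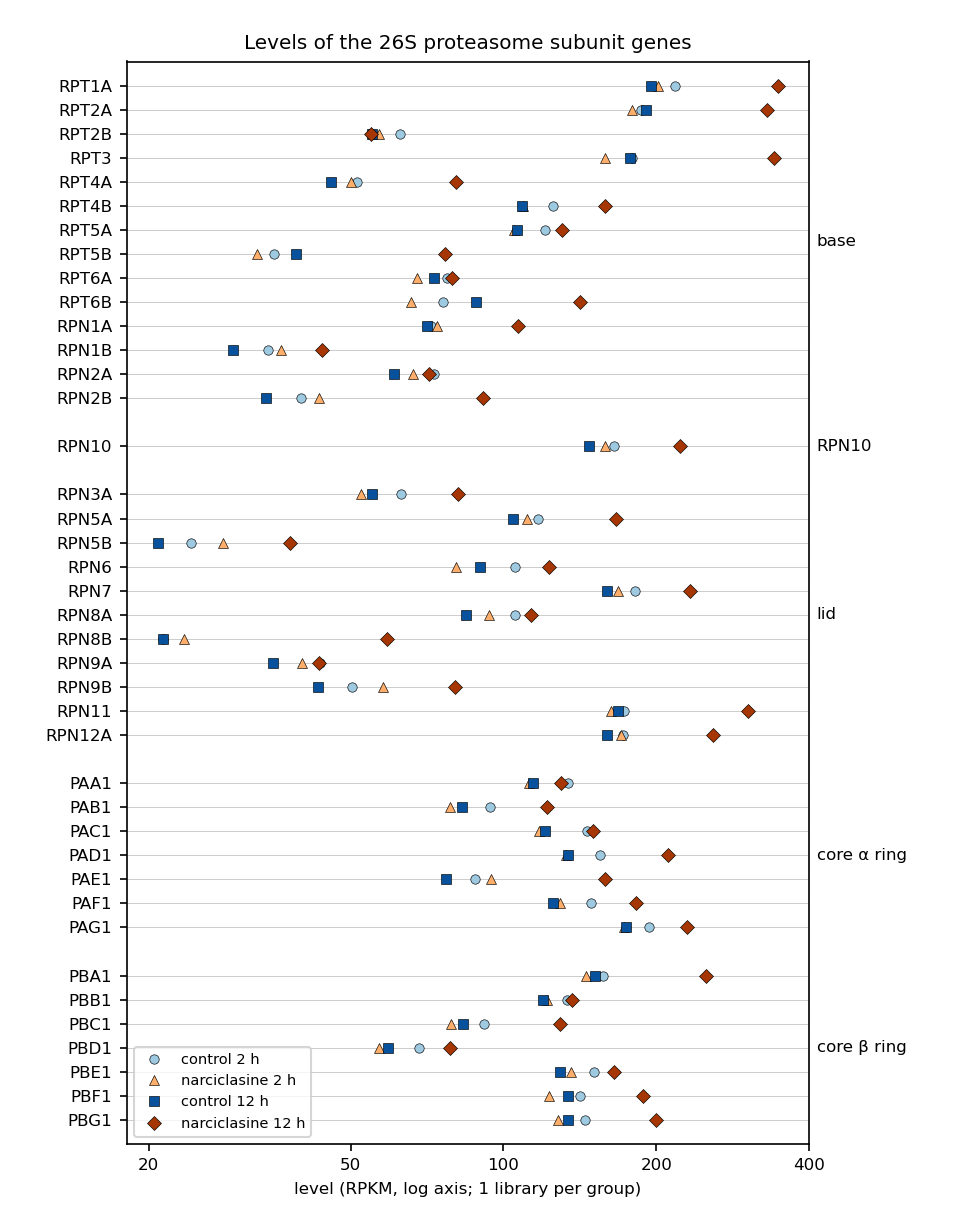
Level of each member (RPKM, log axis) in the 4 libraries, 1 point per library, grouped by subcomplex. For 36 of 40 members the diamond of narciclasine 12 h is the rightmost point, while the other 3 libraries mostly lie close together.

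At 2 h the members were slightly lower with narciclasine than without, and at 12 h most were higher. The median ratio was 0.886 at 2 h and 1.45 at 12 h (-0.17 and 0.53 on the log2 scale), against 0.998 and 0.974 for all genes compared. Between the controls, 12 h against 2 h, the members' median log2 ratio was -0.14, near the 2 h value in size. At 2 h the ratios ran from 0.748 to 1.13. No member was called higher or lower at 2 h, where 10.9% of all genes were called higher and 5.79% lower. The counting interval lay wholly below 1 for 30 members (24.0% of all genes) and wholly above 1 for RPN5B and RPN9B (25.2% of all genes). A ratio of at most 0.8 was reached by RPN6 and PAC1, 2 of 40 members (14.8% of all genes). At 12 h the ratios ran from 0.963 to 2.67, and 17 of 40 members were called higher (21.0% of all genes) and 0 lower (26.2% of all genes). The interval lay above 1 for 38 members (33.8% of all genes) and below 1 for 0 (37.1% of all genes), with RPT2B and RPT6A including 1. These interval shares are not matched for level. The median member level lay above that of 92.4% of genes in control 12 h, so smaller ratios exclude 1 in members than in most genes. The summed reads of the members stood at 0.894 (0.886 to 0.903) of the control at 2 h and at 1.49 (1.48 to 1.505) times the control at 12 h.

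The members' ratios were small and close together beside those of all genes, which include many of far lower level and so of larger counting error. Recovered reads per member at 12 h ran from 234 (RPN9A, control) to 8344 (RPT1A, narciclasine). The value of RPN9A is probably too low by a common factor, and the next lowest was 355 (RPN8B, control). The SD of the log2 ratio over the members was 0.14 at 2 h and 0.31 at 12 h, against 0.63 and 1.20 over all genes compared. At a threshold 25% above the control, 31 members were called higher at 12 h (29.3% of all genes), and at 2-fold only RPN8B and RPN2B (11.6% of all genes). Relative to the 12 h control, the summed level of the 4 shoot markers was lower with narciclasine, 20.1 against 70.5 RPKM, and that of the 8 root markers was 80.2 against 105.1 RPKM. The latter difference in the sum lay in the root hair gene COBL9, at 12.7 against 40.2 RPKM, and without it the other 7 root markers summed to 67.5 against 64.9 RPKM. Singly these went both ways. PLT2 stood at 2.06 (1.55 to 2.76) and SCR at 1.15 (1.04 to 1.27) times the 12 h control. PLT1 stood at 0.720 (0.556 to 0.932) and SHR at 0.689 (0.584 to 0.812). The intervals of SMB, FEZ and RHD6 included 1. The part of these differences in the members' ratios was not tested. In RNA of whole root tips, more cells with a high level and more RNA per cell cannot be told apart.

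**Figure D2:**
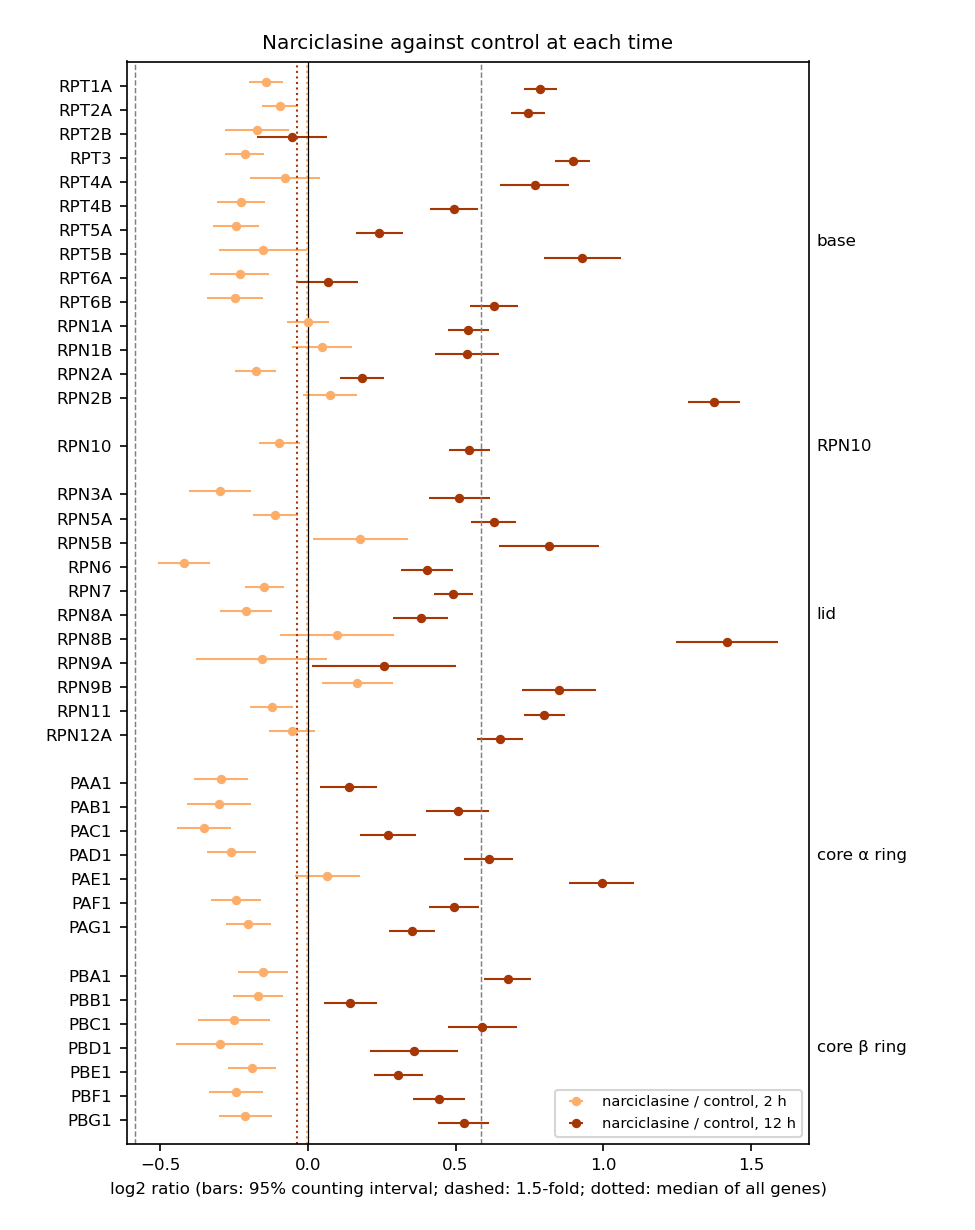
Log2 ratio of narciclasine to control for each member at 2 h (light) and at 12 h (dark), with the 95% counting interval as a bar; dashed lines mark 1.5-fold and dotted lines the median of all genes. All 2 h points lie between the dashed lines, and 17 of the 12 h points lie beyond 1.5-fold.

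By subcomplex, the 12 h medians of the base and lid members lay above those of the core rings. The list of members holds 14 genes for 8 base subunits and 11 genes for 8 lid subunits, both paralogs for many, but 1 gene for each of the 14 core subunits. The median log2 ratio was 0.59 for the base (7 of 14 called), 0.63 for the lid (6 of 11), 0.49 for the α ring (2 of 7), 0.44 for the β ring (2 of 7) and 0.55 for RPN10 (not called). Of all genes 21.0% were called higher at 12 h, and the share of each core ring, 28.6%, lies near that. Summed over genes, the reads of the base were 1.56 (1.53 to 1.58) times the control, those of the lid 1.54 (1.51 to 1.57) times and those of the core 1.37 (1.35 to 1.40) times. At 2 h the medians were -0.16 for the base, -0.12 for the lid and -0.24 for the core, and the summed reads of the core stood at 0.858 (0.844 to 0.873) of the control, below base (0.910) and lid (0.908). The ranges of the subcomplexes overlapped at both times. With the other subunit genes added, an alternative chosen after seeing the data, the order of lid and core at 12 h was lost: the median log2 ratio was 0.59 for the base (8 of 16 called), 0.50 for the lid (6 of 14) and 0.52 for the core (11 of 24).

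**Figure D3:**
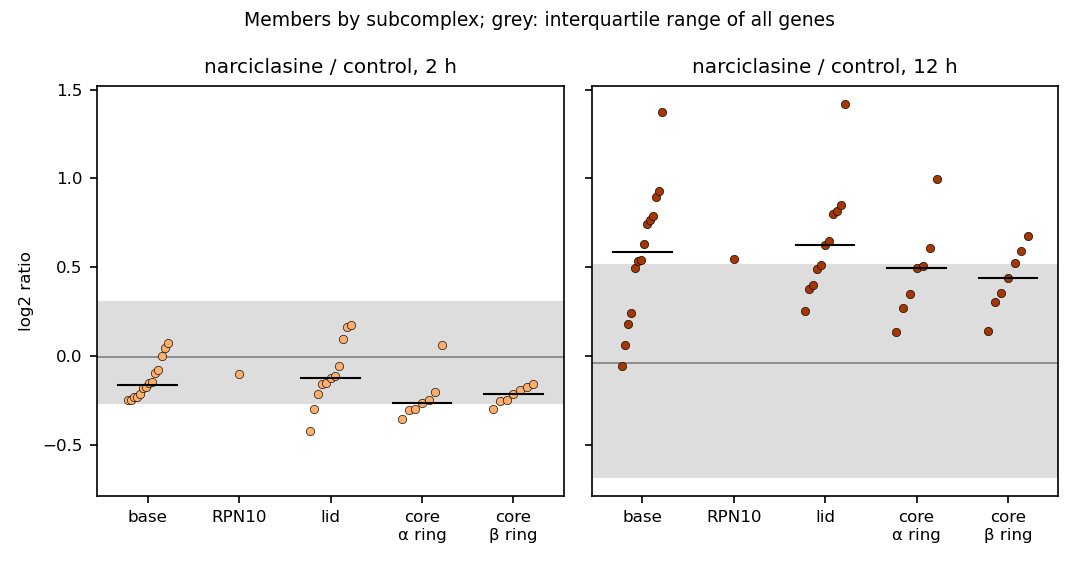
Log2 ratios of the members at 2 h (left) and 12 h (right) by subcomplex, 1 point per gene, with a black line at the median; the grey band is the interquartile range of all genes compared and the grey line their median. At 12 h the medians of base and lid lie above the band and those of the 2 core rings within it. With the other subunit genes added the lid median is 0.50 and the core median 0.52.

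In the ATPase ring of the base, 6 of 10 RPT genes were called higher at 12 h (21.0% of all genes), with a median log2 ratio of 0.69. RPT3 (AT5G58290) stood at 179 RPKM in control 2 h, 158 in narciclasine 2 h, 178 in control 12 h and 342 in narciclasine 12 h. The 2 controls were thus nearly alike, and narciclasine 12 h stood apart from the other 3 libraries, with a 12 h ratio of 1.86 (1.79 to 1.94). RPT1A stood at 217, 202, 195 and 348 RPKM in the same order of libraries, also with narciclasine 12 h far above the rest and a 12 h ratio of 1.73 (1.66 to 1.79).

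RPT2A and RPT2B encode an ATPase whose C-terminal tail, in yeast, docks into the α ring, and in Arabidopsis the loss of RPT2A enlarges leaves. RPT2A (AT4G29040) had 187, 179, 191 and 330.2 RPKM, again in the order control 2 h, narciclasine 2 h, control 12 h and narciclasine 12 h, which holds from here on. RPT2B (AT2G20140) had 62.5, 56.9, 55.1 and 54.9 RPKM. RPT2A was called higher at 12 h, at 1.68 (1.61 to 1.74), while RPT2B was at 0.963 (0.887 to 1.05), and the share of RPT2B in the summed RPKM of the pair went from 22.4% in control 12 h to 14.3% in narciclasine 12 h.

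RPT4A (AT5G43010) had 51.4, 49.98, 45.8 and 80.6 RPKM and RPT4B (AT1G45000) 125, 109, 109 and 159 RPKM. The less abundant RPT4A had the larger 12 h ratio, 1.70 (1.57 to 1.85) against 1.41 (1.33 to 1.49), and was called. The pair RPT5A and RPT5B acts in the development of the gametophyte in Arabidopsis. RPT5A (AT3G05530) had 121, 105, 106 and 130.2 RPKM and RPT5B (AT1G09100) 35.3, 32.6, 39.00 and 76.7 RPKM. RPT5A varied little over the libraries, with a 12 h ratio of 1.18 (1.12 to 1.2505), whereas RPT5B was highest in narciclasine 12 h by a wide margin, with 1.90 (1.74 to 2.08).

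RPT6A (AT5G19990) and RPT6B (AT5G20000) are near neighbours on chromosome 5 and shared 94.4% of coding bases, the highest identity of any pair here, so the split of their reads is uncertain. RPT6A had 77.4, 67.7, 73.1 and 79.1 RPKM and RPT6B 76.2, 65.9, 88.3 and 141 RPKM. In both genes narciclasine 2 h was the lowest library, and RPT6B had at 2 h the lowest ratio of the base, 0.843 (0.789 to 0.901). At 12 h RPT6B was called higher at 1.55 (1.46 to 1.64), and the interval of RPT6A included 1, at 1.05 (0.976 to 1.12).

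RPN1 is, in yeast, the docking site for shuttle proteins and for the ubiquitin protease Ubp6. RPN1A (AT2G20580) had 72.04, 73.98, 70.8 and 107 RPKM and RPN1B (AT4G28470) 34.4, 36.5, 29.3 and 43.97 RPKM. Both were highest in narciclasine 12 h and neither was called, with 12 h ratios of 1.46 (1.39 to 1.53) and 1.45 (1.35 to 1.57). Both lay close to the threshold and passed it with scaling by total reads, at 1.51 and 1.505. At 2 h both intervals included 1.

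RPN2 is the other large scaffold of the base. RPN2A (AT2G32730) had 73.1, 66.3, 60.8 and 71.4 RPKM, with its highest level in control 2 h. RPN2B (AT1G04810) had 40.003, 43.2, 33.99 and 91.1 RPKM, with narciclasine 12 h more than 2 times as high as any other library. The 12 h ratio was 1.14 (1.08 to 1.20) for RPN2A and 2.59 (2.44 to 2.76) for RPN2B, whose upstream region is printed above. RPN2B was the minor gene of the pair in the other 3 libraries, with 35.8% of the summed RPKM in control 12 h, and the major one in narciclasine 12 h, with 56.1%.

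RPN10 (AT4G38630), a ubiquitin receptor, had 165, 159, 147 and 222 RPKM. Narciclasine 12 h was the highest library and control 12 h the lowest. Its 12 h ratio of 1.46 (1.39 to 1.53) missed the 1.5-fold threshold, and with scaling by total reads it was 1.51 and passed.

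In the lid, RPN11 is the metalloprotease that removes ubiquitin chains and RPN8 is its inactive partner. RPN11 (AT5G23540) had 173, 163, 168 and 303 RPKM, with the first 3 libraries close together and narciclasine 12 h far above them, and a 12 h ratio of 1.74 (1.66 to 1.83). RPN8A (AT5G05780) had 106, 93.6, 84.2 and 113 RPKM and RPN8B (AT3G11270) 21.4, 23.5, 21.3 and 58.9 RPKM. RPN8B had the largest 12 h ratio of any member, 2.67 (2.37 to 3.02), against 1.302 (1.22 to 1.39) for RPN8A, and its share of the pair's summed RPKM went from 20.2% in control 12 h to 34.2% in narciclasine 12 h.

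RPN3, RPN5, RPN6, RPN7, RPN9 and RPN12 form the horseshoe of scaffold subunits of the lid. RPN5A (AT5G09900) had 117, 111, 104 and 167 RPKM and RPN5B (AT5G64760) 24.2, 28.0, 20.8 and 37.9 RPKM. Both genes were called at 12 h, at 1.55 (1.47 to 1.63) and 1.76 (1.57 to 1.98). RPN5B had the highest 2 h ratio of any member, 1.13 (1.01 to 1.26).

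RPN9A (AT5G45620) had 43.5, 40.05, 35.1 and 43.3 RPKM and RPN9B (AT4G19006) 50.3, 57.96, 43.05 and 80.2 RPKM. RPN9B was above its control at both times, at 1.12 (1.03 to 1.22) and 1.80 (1.65 to 1.97), and RPN9A had the lowest 12 h ratio of the lid, 1.19 (1.01 to 1.41). The recovered reads of RPN9A imply a gene length of 561 bases and are probably too low by a common factor, so its interval is too wide.

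RPN6 (AT1G29150), which in yeast links the lid to the α ring, had 105, 80.8, 89.8 and 123 RPKM. It had the lowest 2 h ratio of all members, 0.748 (0.703 to 0.795), and was above its control at 12 h, at 1.32 (1.24 to 1.41), without reaching the threshold. RPN12A (AT1G64520) was called at 12 h at 1.57 (1.49 to 1.66), while RPN3A (AT1G20200) and RPN7 (AT4G24820) were not, at 1.43 (1.33 to 1.53) and 1.41 (1.34 to 1.47).

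The α rings of the core form the gate through which substrates enter. PAE1 (AT1G53850) had 87.9, 94.3, 77.04 and 159 RPKM and PAD1 (AT3G51260) 155, 133, 134 and 211 RPKM. These were the α genes called at 12 h, at 1.99 (1.85 to 2.15) and 1.53 (1.44 to 1.62), and PAE1 was the only α gene with a 2 h ratio above 1, 1.05 (0.970 to 1.13). PAA1 (AT5G35590) had 134, 112, 114 and 129.9 RPKM, with control 2 h the highest library and the lowest 12 h ratio of the α genes, 1.10 (1.03 to 1.18). PAC1 (AT3G22110) had 146, 118, 121 and 150.3 RPKM and the lowest 2 h ratio of the core, 0.784 (0.736 to 0.835). The 12 h ratios of PAB1 (AT1G16470), PAF1 (AT5G42790) and PAG1 (AT2G27020) were 1.42, 1.41 and 1.28, with intervals above 1.

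In the β rings, PBA1, PBB1 and PBE1 carry the proteolytic sites. PBA1 (AT4G31300) had 157, 145, 152 and 250.5 RPKM and PBB1 (AT3G27430) 133, 122, 119.7 and 137 RPKM. PBA1 was called at 12 h, at 1.60 (1.51 to 1.69), while PBB1 differed little between the libraries, at 1.10 (1.04 to 1.18). PBE1 (AT1G13060) was at 1.24 (1.17 to 1.31), so 1 of the 3 catalytic members was called (21.0% of all genes). Their paralogs outside the list of members, PBB2 (AT5G40580) and AT3G26340, were both called, at 1.65 (1.53 to 1.78) and 1.64 (1.46 to 1.85), which makes 3 of 5 catalytic genes.

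Of the structural β genes, PBC1 (AT1G21720) had 91.5, 78.9, 83.1 and 129 RPKM and was called at 12 h, at 1.51 (1.39 to 1.63), just past the threshold. PBD1 (AT3G22630) had 68.3, 56.97, 59.2 and 78.5 RPKM, with narciclasine 2 h the lowest library and the lowest 2 h ratio of the β genes, 0.813 (0.734 to 0.900). PBD1, PBF1 (AT3G60820) and PBG1 (AT1G56450) were not called at 12 h, at 1.28, 1.36 and 1.44. All 7 β genes had 2 h intervals below 1 and 12 h intervals above 1, against 4.16% of the genes outside the list of members. That share is not matched for level.

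Within the 9 pairs whose genes are both members, the 12 h ratio of the paralog with the lower RPKM in control 12 h exceeded that of the other in 5 pairs (RPT4, RPT5, RPN2, RPN5 and RPN8) and fell short of it in 3 (RPT2, RPT6 and RPN9). In the RPN1 pair the interval of the difference included 1. Control 12 h is also the denominator of the 12 h ratio, so a low value there lowers the level and raises the ratio. With the lower paralog chosen in control 2 h, an alternative added after seeing the data, it was ahead in 6 pairs and behind in 2, as the RPT6 pair turned. The widest gap was in RPN2, where the ratio of RPN2B was 2.29 (2.11 to 2.47) times that of RPN2A, followed by RPN8 at 2.05 (1.79 to 2.35). Over the 21 pairs that include genes outside the list of members, the lower paralog was ahead in 10 and behind in 6, or in 11 and 5 when chosen in control 2 h. The paralogs share 80.3% to 94.4% of coding bases, and reads that fit both copies could have been split or lost in the authors' counting. Summed over paralogs, the 32 subunits for which all listed genes were added had RPKM ratios at 12 h from 1.24 (PAC) to 1.86 (RPT3), so none of these 32 stood below its control. DSS1 was not among them: its 2 genes summed to 246 RPKM in control 12 h and 212 in narciclasine 12 h, a scaled ratio of 0.836.

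**Figure D4:**
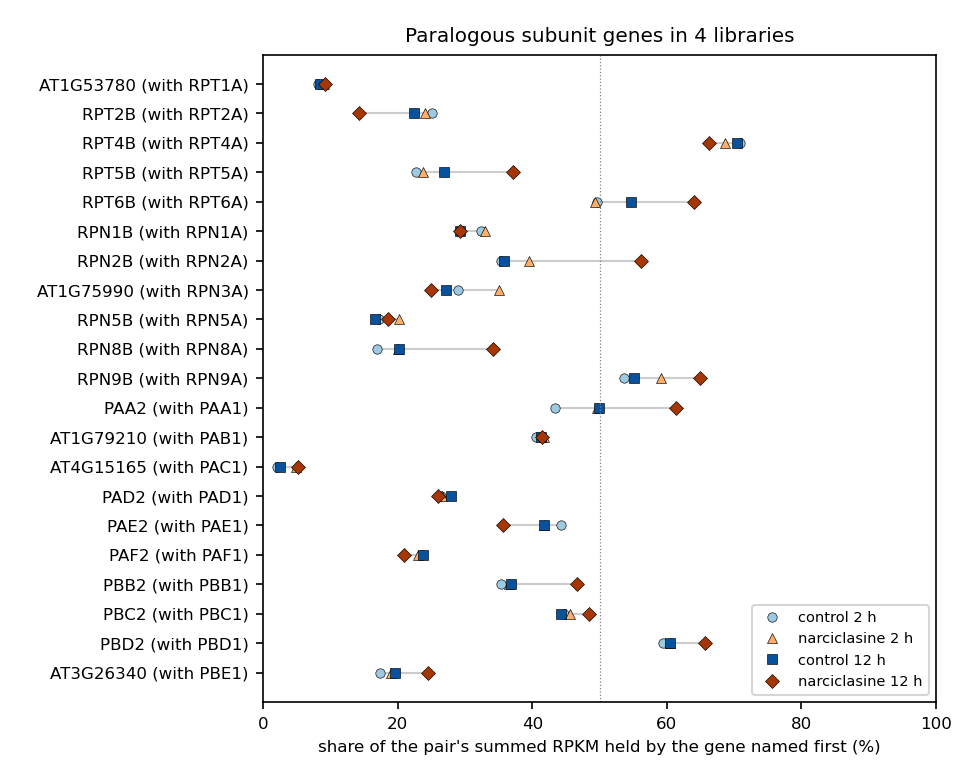
Share (%) of the summed RPKM of a subunit's 2 genes that the gene named first holds, in each of the 4 libraries, for 21 pairs. The share of RPN2B moves from 35.8% to 56.1% and that of RPN8B from 20.2% to 34.2% between control 12 h and narciclasine 12 h, while that of RPT2B moves from 22.4% to 14.3%.

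Between the controls, the members had a median log2 ratio of -0.14 at 12 h against 2 h, and 0 members were called in either direction (10.3% of all genes were called higher and 5.48% lower). The counting interval lay below 1 for 25 members and above 1 for 3, against 4435 and 4556 of 19366 genes compared. Between the narciclasine libraries, which asks how the treated root tips differed over time, the median was 0.59, with 20 members called higher (18.4% of all genes) and 0 lower (24.4% of all genes). With the 25% threshold 31 were called higher (28.5% of all genes) and 5 at 2-fold (8.01%). Dividing each member's 12 h ratio by its 2 h ratio gave a value above 1 for all 40 members, with a median log2 value of 0.71 against -0.06 for all genes compared. By this measure 29 members were called higher (17.2% of all genes), 4 of them at 2-fold (7.96%), and 0 lower (24.4% of all genes). Across the 40 members the 2 h and 12 h log2 ratios had a Pearson r of 0.61 and a Spearman rho of 0.58, against 0.38 and 0.36 across 19341 other genes. These correlations are across genes measured in the same 4 libraries, and genes are not replicates. Of the 7 members with a 2 h ratio above 1, RPN2B, RPN5B, RPN8B, RPN9B and PAE1 were called at 12 h and RPN1A and RPN1B were not.

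The remaining subunit genes were read from a list of 16, most of them paralogs of members. At 12 h 15 could be compared, with a median log2 ratio of 0.62, and 8 (53.3%) were called higher and 0 lower, where 21.0% and 26.2% of all genes were called. RPN12B (AT5G42040) lay under the filter, between 0.392 and 1.08 RPKM in the 4 libraries. AT4G15165, a hydrolase-family paralog of PAC1, had 2.95, 6.11, 3.06 and 8.30 RPKM and was called at both times, at 2.02 (1.36 to 3.04) and 2.63 (1.77 to 4.00). AT1G53780, the paralog of RPT1A, had 19.4, 20.2, 17.8 and 34.8 RPKM and PAA2 (AT2G05840) 103, 111, 114 and 206 RPKM. Both were highest in narciclasine 12 h, with 12 h ratios of 1.89 (1.70 to 2.11) and 1.75 (1.65 to 1.86).

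The 2 genes of the small lid subunit DSS1 were below their control at both times. DSS1(V) (AT5G45010) had 118, 64.8, 111 and 90.9 RPKM and was the 1 subunit gene called lower at 2 h, at 0.536 (0.482 to 0.596). DSS1(I) (AT1G64750) had 172, 124, 135 and 121 RPKM and stood at 0.703 (0.653 to 0.757) at 2 h, short of the threshold. At 12 h they stood at 0.869 (0.801 to 0.944) for DSS1(I) and 0.795 (0.719 to 0.879) for DSS1(V), and were not called.

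Of 8 genes for transcription factors, activator and assembly, 7 could be compared, with a median log2 ratio of 0.85 at 12 h and 6 (85.7%) called higher, against 21.0% of all genes. AT5G38650, annotated as a UMP1 maturation factor, was listed at 0 in all 4 libraries. The factor gene NAC053 (AT3G10500) had 37.9, 93.1, 59.9 and 96.7 RPKM, so both narciclasine libraries stood above both controls, and control 12 h was itself 1.62 times control 2 h. It was called at both times, at 2.39 (2.23 to 2.57) and 1.56 (1.47 to 1.67). The gene of the other factor, NAC078 (AT5G04410), had 48.8, 42.4, 43.3 and 73.5 RPKM. Its 2 h ratio was below 1, 0.846 (0.786 to 0.911), as for most members, and it was called higher at 12 h, at 1.64 (1.53 to 1.76).

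PA200 (AT3G13330), an alternative cap of the core, had 32.2, 47.3, 33.2 and 83.1 RPKM and a 12 h ratio of 2.42 (2.31 to 2.55). AT3G15180, annotated as an ARM repeat protein, and AT2G03430, an ankyrin repeat protein, had 17.8, 21.7, 16.9 and 46.97 RPKM and 17.3, 19.2, 15.4 and 49.7 RPKM. In all of these narciclasine 12 h was the highest library, and the ratios of the latter pair were 2.69 (2.39 to 3.02) and 3.13 (2.66 to 3.70).

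Of 9 genes that encode ubiquitin or the E1 enzymes that activate it, 4 (44.4%) were called higher at 12 h and 2 (22.2%) at 2 h, against 21.0% and 10.9% of all genes, with medians of 0.19 and 0.40 on the log2 scale. UBA2 (AT5G06460), an E1 enzyme, had 19.6, 26.5, 14.1 and 35.7 RPKM and a 12 h ratio of 2.45 (2.23 to 2.70), whereas its paralog UBA1 (AT2G30110) was at 1.05. The polyubiquitin gene UBQ14 (AT4G02890) had 184, 279.6, 167 and 384 RPKM and a 12 h ratio of 2.22 (2.12 to 2.33). UBQ10 (AT4G05320) was called at both times, at 1.79 and 1.59, with 716, 1317, 887 and 1457 RPKM, and UBQ2 (AT2G36170) at 12 h, at 1.60. Polyubiquitin genes hold near-identical repeats, so the split of reads among them is uncertain.

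Of 14 genes for shuttle factors, CDC48 and proteasome-associated ubiquitin proteases, 4 (28.6%) were called higher at 12 h and 0 at 2 h, with medians of 0.29 and -0.10. These shares lie near and below those of all genes, 21.0% and 10.9%. UBP6 (AT1G51710), a ubiquitin protease whose yeast counterpart docks on RPN1, had 87.3, 93.4, 73.3 and 166 RPKM and a 12 h ratio of 2.19 (2.06 to 2.33). CDC48B (AT3G53230), of the CDC48 family of unfolding ATPases, had 51.2, 39.5, 49.6 and 101 RPKM, with a 12 h ratio of 1.96 (1.85 to 2.08). UBP7 (AT3G21280) and UCH2 (AT1G65650) were called at 1.98 and 1.51. None of the 4 RAD23 shuttle genes was called, and their 12 h ratios ran from 0.833 to 1.20.

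**Figure D5:**
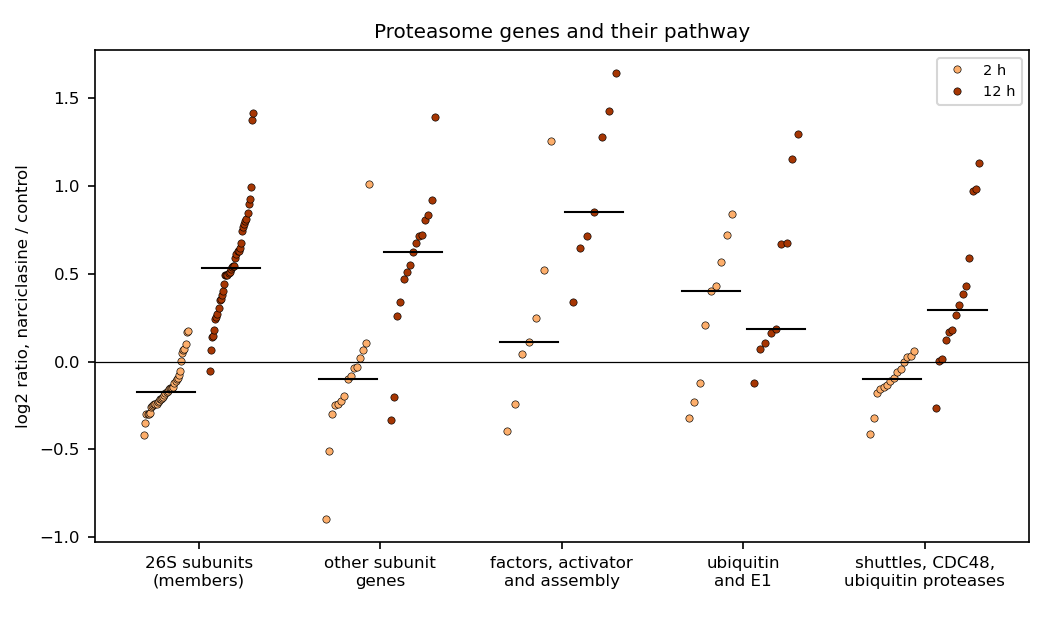
Log2 ratio of narciclasine to control at 2 h (light) and 12 h (dark) for the members and the other lists of the pathway, 1 point per gene compared, with a black line at the median. The 12 h median is 0.53 for the members, 0.62 for the other subunit genes and 0.85 for the factor, activator and assembly genes, and the highest 2 h point among the latter is NAC053.

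Of the members, 13 overlap another annotated gene in TAIR10.1, 10 of them on the opposite strand, and whether the authors' counting used strand is not given in the sources used here. Of the members described with full values these are RPT1A, RPT3, RPT5B, RPN5A, RPN5B, RPN9B, RPN11, PBB1 and PBD1. RPN2B, RPN8B and PAE1, with the largest 12 h ratios, overlap no annotated gene. Of these 13, 8 (61.5%) were called higher at 12 h, against 9 of the other 27 (33.3%) and 17 of all 40 (42.5%). Of all genes compared, 21.0% were called higher at 12 h.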

How the data were processed

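RNA-seq libraries from excised root tips, 1 per group, were made with a standard Illumina protocol per the labels' protocols. Bowtie 0.12.2, edgeR and a mouse build (mm8) are listed in the submitters' processing notes, yet the table holds Arabidopsis locus codes, and the build used is unclear. The authors deposited RPKM values. Of 33602 identifiers, 32835 matched TAIR10.1, the RefSeq assembly used for symbols, overlaps and upstream sequence.

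The comparisons were planned for counts, and no count table was used here. Within each gene, RPKM values multiplied by library size relate to each other as integers, which gave library sizes and reads for all 24396 genes above 0 (relative tolerance 1e-11). Reads are known up to a common factor per gene, and where it exceeds 1 the interval is too wide. Only 12.8% of recovered lengths equal the longest annotated transcript. Reads were scaled by TMM (trims of 30% and 5%, own code), giving factors of 0.999 for control 2 h, 1.02 for narciclasine 2 h, 0.972 for control 12 h and 1.00 for narciclasine 12 h. The filter asked for 1 CPM in 1 or more of the libraries. Ratios carry exact Clopper-Pearson 95% intervals, and the quotient of 2 ratios a normal interval. Reads are not independent molecules, so these cover counting error only. The recovery and the call rule were tried on simulated reads that held counting error only and used annotated transcript lengths where known. Those reads held no spread between samples, so the simulation cannot show how the call rule fares with it.

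The members and gene lists were chosen with earlier results of these data known. All 40 members count as named. Full values went to the extremes of each subcomplex, to called members (at most 4 per subcomplex) and to pairs of member paralogs, and of the other lists to at most 4 called genes each plus NAC053 and NAC078. UBA1, DSS1(I), RPN10, PBB2, AT3G26340, COBL9, UMP1 genes, RPN12B, the RAD23 genes and the other genes of the closing section were named after their values were seen. Alternatives were scaling by upper quartile, by median of ratios or by total reads, unscaled RPKM, log2(RPKM + 1), other filters and folds, other members, the control of the other time and another choice of the lower paralog. Software was numpy 2.4.6, Biopython 1.88, scipy 1.17.1, pandas 2.3.3 and matplotlib 3.10.9 under Python 3.11.15.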

Additional observations from a re-analysis of the deposited data

Results flagged for a closer look

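The narciclasine to control comparison came out differently at 2 h and at 12 h. The median member had a 12 h ratio 1.64 times its 2 h ratio, and for 28 of 40 members (70.0%) the counting interval lay below 1 at 2 h and above 1 at 12 h, against 4.16% of 19341 other genes. With 1 library per group the difference between the times was not tested, and the control libraries of the 2 times also differ. The counting interval of control 12 h against control 2 h lay below 1 for 25 members and above 1 for 3. Members have higher levels than most genes, so smaller ratios exclude 1 in them, and the 4.16% is not matched for level. The values below are each gene's 12 h ratio divided by its 2 h ratio.

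Among the ATPases of the base this value was 1.91 for RPT1A, 1.79 for RPT2A, 2.16 for RPT3, 1.65 for RPT4B, 1.40 for RPT5A, 2.12 for RPT5B and 1.84 for RPT6B. It was 1.28 for the scaffold gene RPN2A and 1.56 for the ubiquitin receptor gene RPN10. In the lid it was 1.75 for RPN3A, 1.67 for RPN5A, 1.77 for RPN6, 1.56 for RPN7, 1.51 for RPN8A and 1.90 for the deubiquitinase gene RPN11. In the α ring it was 1.35 for PAA1, 1.75 for PAB1, 1.54 for PAC1, 1.83 for PAD1, 1.67 for PAF1 and 1.47 for PAG1. In the β ring it was 1.78 for PBA1, 1.24 for PBB1, 1.79 for PBC1, 1.58 for PBD1, 1.41 for PBE1, 1.61 for PBF1 and 1.67 for PBG1. The 2 members with the largest 12 h ratios, RPN8B and RPN2B, are absent here because their 2 h intervals included 1.

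Of the other genes of the pathway, 14 had intervals on opposite sides of 1 at the 2 times. Among subunit paralogs the value was 1.66 for AT1G79210, 1.64 for PAD2, 1.47 for PAF2, 2.04 for PBC2 and 1.89 for PBD2. It was 1.94 for the transcription factor gene NAC078 and 1.66 for AT1G67250, a UMP1 maturation factor. Among ubiquitin and E1 genes it was 1.40 for UBQ1, 1.88 for UBQ2 and 1.14 for UBA1, and 0.796 for UBQ11, the 1 gene of these that stood above its control at 2 h and below it at 12 h. It was 1.21 for the shuttle gene DSK2B, 1.52 for CDC48A and 2.62 for CDC48B.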

How the results depend on the processing

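No paired analysis was possible because the groups of each comparison hold 1 library each and share only 1 replicate number. A fit of treatment blocked on time, with the 1 remaining degree of freedom as its error, was not run. No library could be left out of a comparison. Of the alternative values for the medians and counts that answer the comparisons, 201 kept their direction and stayed near the reported value, 18 moved and 1 changed sign. No scaling, pseudocount or unscaled RPKM setting was among the latter 19. Neither were the filter settings (no filter and 5 CPM), but these could not remove a member, as every member lies far above both. The filter values among the 201 therefore do not test the members' medians and counts. The number of members called higher at 12 h was 17, and 20 with scaling by total reads, where RPN1A, RPN1B and RPN10 passed the threshold, 18 with median of ratios and 14 with upper quartile. The share of all genes called higher, 21.0%, was worked out with TMM only. The 12 h median log2 ratio of all genes also shifted, by 0.052 with total reads, 0.040 with median of ratios and -0.045 with upper quartile. At 2-fold, 2 members were called higher at 12 h, 5 between the narciclasine libraries and 4 by the quotient of the 2 ratios. With a threshold 25% above or, for lower, at 0.8 of the compared library, 2 were called lower at 2 h (RPN6 and PAC1), and 31 higher both at 12 h and between the narciclasine libraries. With the other subunit genes added, 1 gene was called higher and 1 lower at 2 h, and the lid median at 12 h was 0.50. Against the control of the other time, the 2 h median log2 ratio was -0.060 for the members, -0.049 for the base, -0.11 for the core and 0.015 for the lid, which changed sign, and the 12 h median was 0.41 for the members, 0.51 for the lid and 0.32 for the core. The 2 control libraries themselves differ by a median of -0.14. Without the 13 members that overlap another gene, an alternative chosen after seeing the data, 9 of 27 were called higher at 12 h, 12 between the narciclasine libraries and 17 by the quotient. That is 33.3%, 44.4% and 63.0% of them, against 42.5%, 50.0% and 72.5% of all members. The shares of all genes were 21.0%, 18.4% and 17.2% in the same order. With upstream windows of 500 bases, also chosen after seeing the data, 57.5% of members, 32.8% of coding genes and 35.4% of those compared held TGGGC. Counting intervals are narrow for most members, whereas the lack of replicates leaves the spread between samples unknown.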
